A study of Arabidopsis thaliana with 4 samples.

Results

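The 21 genes described here encode transcription factors of the bHLH, bZIP, NAC and TCP families. The rule that chose them used names alone and no measured value, and took the genes for which the array annotation gives a probe set a single gene symbol that starts with 1 of 15 family prefixes (MYB, BHLH, NAC, ANAC, BZIP, ERF, HB, HSFA, HSFB, GATA, TCP, SPL, NF-YA, NF-YB or NF-YC) followed by a number. Of 13356 genes with such a single-symbol probe set, 21 met the rule. These were 14 bZIP genes, 5 bHLH genes, NAC014 and TCP15. The other 11 prefixes, MYB and ERF among them, found no probe set, although 408 genes of the RefSeq annotation of the TAIR10.1 assembly carry a symbol that fits the rule, 120 of them MYB genes. Genes of these families other than the 21 were not analysed as members of this set. Each of the 21 was read by 1 probe set, and none of these probe sets is marked as sharing probes between genes.

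Expression was compared between vip3 mutants, homozygous for vip3-1, a null allele of a gene for a subunit of the Paf1 complex (Paf1C), and wild-type (WT) Arabidopsis thaliana plants. Paf1C travels with elongating RNA polymerase II. Total RNA from the aerial tissues of 14-d-old plants grown on soil was hybridised to Affymetrix ATH1 arrays, 2 for vip3 and 2 for WT. For each array, RNA came from 3 independently derived samples of over 100 plants each, so the spread between arrays of 1 genotype is that between pools, not between single plants. The values are MAS5 signals, a background-corrected brightness per probe set on a linear scale with no unit.

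The bHLH and bZIP proteins bind DNA as dimers through a basic region next to the surface that joins the partners, and members of a family combine with one another. NAC and TCP proteins are families found only in plants. Among the genes measured, all 5 bHLH genes belong to the network that senses and answers iron deficiency. BZIP17, BZIP28 and BZIP60 carry the signal of unfolded proteins from the endoplasmic reticulum to the nucleus, and bZIP44 and BZIP53 belong to a small group whose translation is held down by sugar and which acts when energy is short. Many such factors are controlled after transcription, by cleavage from a membrane, splicing or protein breakdown, which an mRNA signal does not show.

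Across the 22746 probe sets tested, log2 signals correlated at r = 0.95 between the vip3 arrays and at r = 0.953 between the WT arrays, and from 0.941 to 0.946 across genotypes, computed over probe sets and not over independent samples. The photosynthetic genes that mark green tissue were bright on every array. Genes are called measured here where a probe set carries their single symbol, and others may be read by probe sets without a name. The 4 measured of 20 listed had a summed signal of 75169 and 82662 on the vip3 arrays and of 79118 and 75427 on the WT arrays, and none was called (adjusted p-values of 0.22 or more in limma). Of 13 listed root genes 3 were measured, and their sum was 2741 and 3327 in vip3 and 4868 and 5788 in WT. The beta-glucosidase gene PYK10 made up most of that sum and was lower in vip3 (log2 fold change -0.82, adjusted p = 0.0062 in limma). The other measured root genes were not called, and their arrays overlapped between genotypes. EXPA7 had a log2 fold change of -0.49 (adjusted p = 0.65 in limma) and EXPA18 one of 0.60 (adjusted p = 0.79). AMS, the single measured gene of 14 anther and pollen markers, had signals of 3.5 and 9.7 in vip3 and 17.9 and 4.1 in WT. None of 17 listed seed genes had a named probe set. The part of root tissue in the differences below was not tested. In bulk tissue, fewer cells of a type and less RNA per cell cannot be told apart.

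Of the 21 genes, 3 were upregulated in vip3 and 0 were downregulated at an adjusted p under 0.05 in limma, with p-values adjusted over all probe sets. The upregulated genes were bZIP44, bHLH104 and bHLH121. The 3 calls are 14.3% of the 21 genes, while 9.8% of all probe sets tested were called, 4.73% as higher and 5.07% as lower in vip3. A call was more frequent among brighter probe sets, and above the lowest 40% of mean log2 signal 15.7% were called, against 3 of the 14 regulator genes there. With so few genes, these shares do not set the regulators apart from other genes. The study's methods ask for a p under 0.001 and a change of 2-fold or more. By that rule, taking p as unadjusted, 1 of the 21 genes was called, bZIP44, where 1.56% of all probe sets were.

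The median log2 fold change of the 21 genes was 0.09, against 0.001 over all probe sets. It was above 0 for 12 genes and below 0 for 9. Both vip3 arrays lay above both WT arrays for 7 genes (33.3%; 25.9% of all probe sets) and below both for 6 (28.6%; 26.3% of all probe sets), and the genotypes overlapped for the other 8. At an unadjusted p under 0.05 there were 6 genes, where 23.7% of all probe sets passed. These were the 3 called genes, bZIP43 and BZIP28, all with higher values in vip3, and bZIP52, with lower ones. With 2 arrays against 2, an exact permutation of the arrays of 1 gene cannot give a two-sided p below 0.33, so the test of each gene rests on the spread that limma shares between probe sets.

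**Figure D1:**
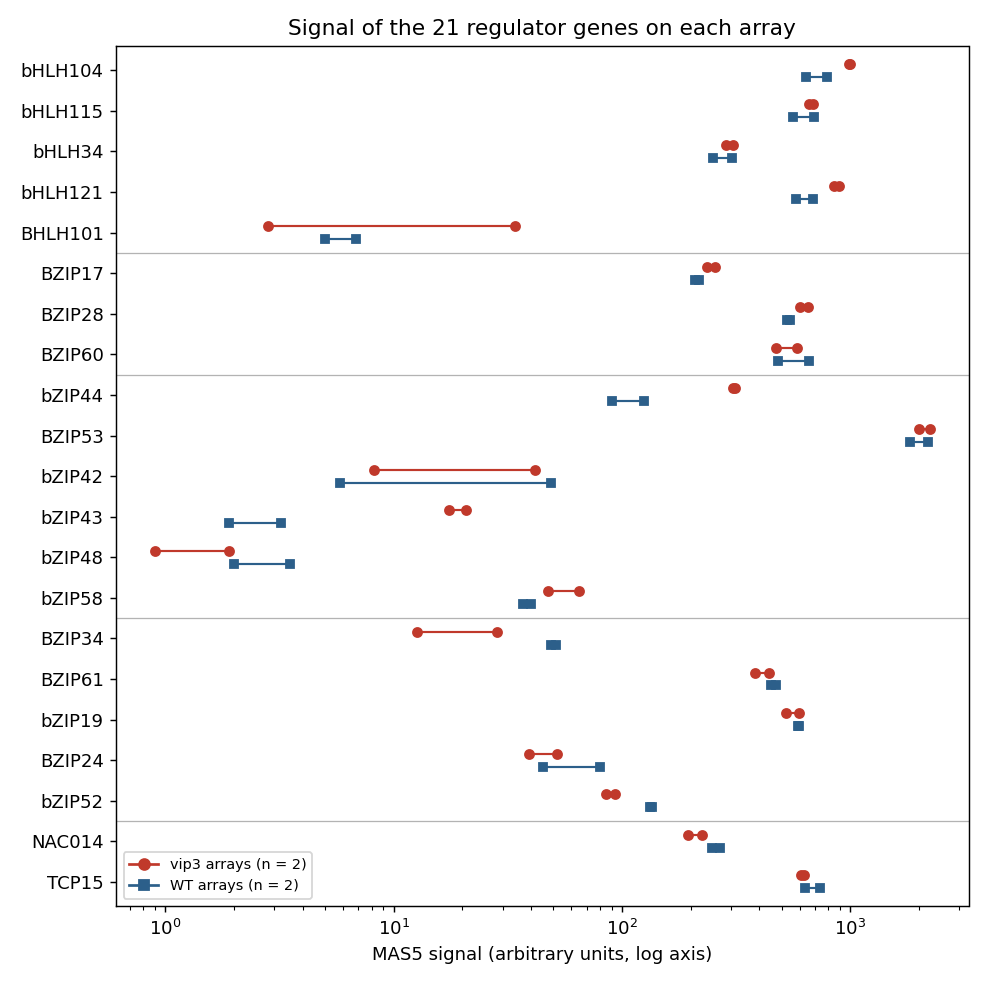
Signal of each of the 21 genes on each array, on a log axis, with the vip3 arrays as red circles above the WT arrays as blue squares and a line joining the 2 arrays of a genotype. The vip3 and WT pairs are clearly apart for bZIP44 (307.2 and 312.6 in vip3, 90 and 124.6 in WT), while the arrays of 1 genotype are far apart for bZIP42 and, in vip3, for BHLH101.

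The largest change among the called genes was that of bZIP44 (AT1G75390), a bZIP of group S. Its signals were 307.2 and 312.6 in vip3, against 90 and 124.6 in WT. The vip3 arrays were nearly equal and both were more than double the higher WT array (ratio of the means 2.89). In limma the change was 2.93-fold, or 1.55 ± 0.21 SE on the log2 scale with a 95% interval from 1.06 to 2.03 (adjusted p = 0.0046). bZIP44 remained called without either WT array but not without vip3 replicate 1 (adjusted p = 0.086) or vip3 replicate 2 (0.089), where the log2 fold changes were 1.56 and 1.54.

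BZIP53 (AT3G62420), which belongs with bZIP44 to the sugar-repressed subgroup and activates genes of amino acid breakdown when energy is short, did not pass. Its signals were 2001 and 2230 in vip3 and 1819 and 2199 in WT, so that the genotypes overlapped. The log2 fold change was 0.08 ± 0.10 SE (adjusted p = 0.73), and its 95% interval ran from -0.16 to 0.32. Of 9 listed regulators of this energy and sugar group, these 2 were measured. Among 19 genes listed as answering low energy, a list drawn up after the members were known, 2 were measured. MCCA (AT1G03090), for a subunit of the enzyme that breaks down leucine in mitochondria, had signals of 482.8 and 435 in vip3 and 316 and 329.5 in WT and was upregulated (log2 fold change 0.51, adjusted p = 0.032). MCCB (AT4G34030), for its partner subunit, had 765.8 and 645.4 in vip3 and 837.9 and 838.6 in WT and did not pass (log2 fold change -0.25, adjusted p = 0.18).

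The other 4 members of group S were dim, and little is known of what they do. All 4 lay in the lowest 40% of mean log2 signal, which ends at a signal of 93. bZIP43 (AT5G38800) had signals of 17.4 and 20.7 in vip3, against 1.9 and 3.2 in WT. The genotypes were well apart on the log2 scale (2.94 ± 0.95 SE), but all 4 values were near the bottom of the range and the adjusted p was 0.10. With 16 added to each signal before taking log2, which damps the changes of dim genes, the log2 fold change was 0.92. bZIP58 (AT1G13600) had 47.4 and 64.5 in vip3 and 40 and 36.7 in WT (log2 fold change 0.53 ± 0.46 SE, adjusted p = 0.56). For bZIP48 (AT2G04038) the signals were 0.9 and 1.9 in vip3 and 3.5 and 2 in WT, close to the lowest value of 0.1 on these arrays. bZIP42 (AT3G30530) had 8.2 and 41.6 in vip3 and 5.8 and 48.7 in WT, and thus differed far more between arrays of a genotype than between genotypes. Its 95% interval ran from -2.72 to 2.99 on the log2 scale.

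**Figure D2:**
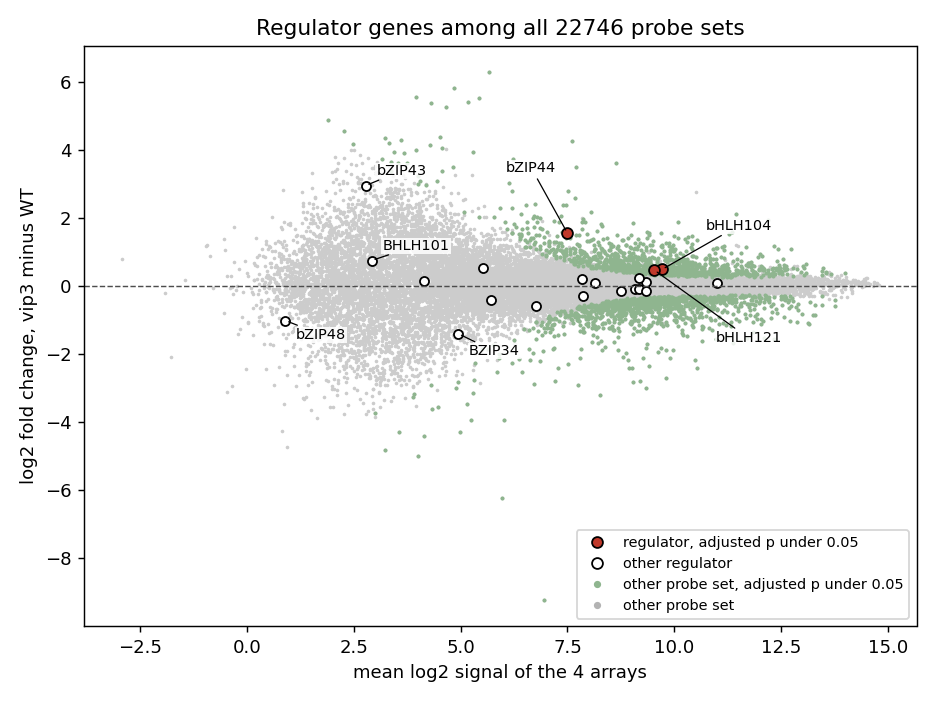
Log2 fold change (vip3 minus WT) against mean log2 signal for all 22746 probe sets, with the 3 called regulator genes in red, the other 18 as open circles and other called probe sets in green. bZIP44 stands out from the regulators at a log2 fold change of 1.55, while bZIP43 at 2.94 lies in the wide scatter of dim probe sets.

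Both other called genes belonged to the iron network. bHLH104 (AT4G14410) encodes a binding partner of the iron-sensing ubiquitin ligase BRUTUS. In pairs with close relatives, this factor turns on the genes for the iron-deficiency response. Its signals were 987.6 and 999.2 in vip3, against 790.9 and 639.1 in WT. Both vip3 arrays were higher than both WT arrays, and the 2 WT arrays differed more from each other than the vip3 arrays did. The fold change was 1.40 (log2 fold change 0.48 ± 0.11 SE, 95% interval 0.23 to 0.74, adjusted p = 0.035).

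bHLH121 (AT3G19860), a partner of bHLH34, bHLH104 and bHLH115 that is needed for the iron-deficiency response, had signals of 852.1 and 890.4 in vip3, against 580.6 and 684.8 in WT. The genotypes again did not overlap, and the fold change was 1.38 (log2 fold change 0.47 ± 0.10 SE, 95% interval 0.23 to 0.70, adjusted p = 0.030). Neither of these 2 calls was stable to the removal of an array. bHLH104 was called only without WT replicate 1 (adjusted p = 0.015) and not without WT replicate 2 (0.12), vip3 replicate 1 (0.18) or vip3 replicate 2 (0.20), and bHLH121 only without WT replicate 2 (0.020) and not without WT replicate 1 (0.14), vip3 replicate 1 (0.15) or vip3 replicate 2 (0.19). Over these removals the log2 fold change was from 0.33 to 0.64 for bHLH104 and from 0.35 to 0.59 for bHLH121.

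The close relatives of bHLH104 did not pass. bHLH115 (AT1G51070) had signals of 662.4 and 687.8 in vip3 and 563.5 and 690.2 in WT. The upper WT array exceeded both vip3 arrays, and the log2 fold change was 0.11 ± 0.11 SE (95% interval -0.15 to 0.38, adjusted p = 0.62). bHLH34 (AT3G23210) had 305.1 and 284.2 in vip3 and 304.8 and 251.6 in WT, so that the genotypes overlapped (log2 fold change 0.09 ± 0.15 SE, 95% interval -0.25 to 0.43, adjusted p = 0.79). Both intervals take in part of the range estimated for bHLH104 and bHLH121, and the difference between the genes was not tested.

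BHLH101 (AT5G04150) encodes a bHLH of another subgroup, whose gene is itself a target of the 4 factors above and whose mRNA is normally abundant when iron is short. Its signals were 34.1 and 2.8 in vip3, against 6.8 and 5 in WT. The vip3 arrays lay on either side of the WT arrays, so no direction could be read (log2 fold change 0.74 ± 1.31 SE, adjusted p = 0.80). Of 14 listed iron regulators these 5 were measured, with log2 fold changes from 0.09 to 0.74, a median of 0.47, and 2 called higher and 0 called lower. With 5 genes, this count is read against the 4.73% of all probe sets called higher, and nothing particular to the iron network was tested. None of 19 listed iron-deficiency and iron-storage genes had a named probe set, so that the output of the network was not analysed here.

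**Figure D3:**
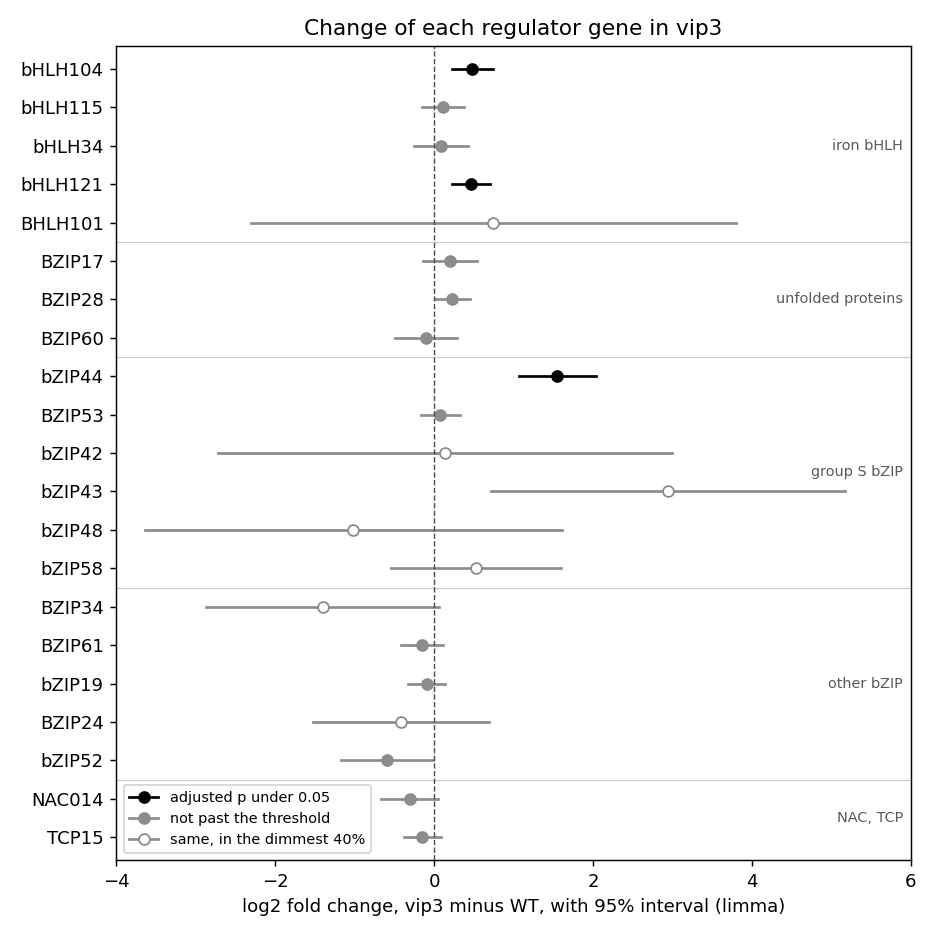
Log2 fold change (vip3 minus WT) of the 21 genes with its 95% interval from limma, grouped by role, in black for an adjusted p under 0.05, in grey otherwise, and with open circles for the 7 genes in the dimmest 40%. The intervals of the called genes bZIP44, bHLH104 and bHLH121 lie above 0, as do those of bZIP43 and BZIP28, which were not called after adjustment. That of bZIP52, also not called, lies below 0 (-1.17 to -0.01). The intervals of BHLH101, bZIP42 and bZIP48 are the widest.

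The regulators of the response to unfolded proteins did not pass. BZIP28 (AT3G10800) and BZIP17 (AT2G40950) encode factors anchored in the endoplasmic reticulum membrane, which are cut free in the Golgi. BZIP28 had signals of 654.5 and 600.6 in vip3 and 526 and 542.8 in WT. The genotypes did not overlap, but the fold change was small at 1.17 (log2 fold change 0.23 ± 0.09 SE, adjusted p = 0.18). BZIP17 likewise had slightly higher values in vip3, 254.7 and 236, against 209.2 and 217.8 in WT (log2 fold change 0.20 ± 0.15 SE, adjusted p = 0.48). The mRNA of BZIP60 (AT1G42990) is spliced in the cytoplasm under stress to give the active factor, which the summed signal of a probe set does not separate from the unspliced form. Its signals were 585.6 and 475 in vip3 and 482.1 and 661.8 in WT, and the genotypes overlapped (log2 fold change -0.10 ± 0.17 SE, adjusted p = 0.79).

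These 3 were the measured genes of 24 listed regulators of unfolded proteins and heat. Of 12 listed genes that answer unfolded proteins 1 was measured, CRT1b (AT1G09210), for the chaperone calreticulin. It had signals of 2536 and 2766 in vip3 and 2979 and 2839 in WT and did not pass (log2 fold change -0.13, adjusted p = 0.34). None of 14 listed heat-shock genes had a named probe set.

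The 5 remaining bZIP genes had log2 fold changes below 0, and none passed. bZIP52 (AT1G06850), of group I, had signals of 85.5 and 93 in vip3, against 135.5 and 132.9 in WT. The arrays of each genotype were close together and the genotypes were apart (log2 fold change -0.59 ± 0.25 SE, 95% interval -1.17 to -0.01), with an adjusted p of 0.20. BZIP34 (AT2G42380), which is needed for normal pollen walls, was dim, with 28.2 and 12.7 in vip3, against 48.9 and 51.2 in WT (log2 fold change -1.40 ± 0.63 SE, adjusted p = 0.23). Its closest relative, BZIP61 (AT3G58120), had far less spread, with 442.7 and 383.8 in vip3 and 470.6 and 448.1 in WT, and its log2 fold change was -0.16 ± 0.11 SE (95% interval -0.42 to 0.11, adjusted p = 0.47). The upper vip3 array of BZIP61 fell just below the lower WT array.

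bZIP19 and BZIP24 belong to group F. bZIP19 (AT4G35040), a zinc-sensing activator of genes for zinc uptake, had signals of 594 and 520.6 in vip3 and 595.9 and 591.9 in WT. The WT arrays were nearly identical and 1 vip3 array matched them, and the log2 fold change was -0.09 ± 0.10 SE (95% interval -0.33 to 0.14, adjusted p = 0.64). BZIP24 (AT3G51960), a regulator in the response to salt, had 39.3 and 52 in vip3 and 45.2 and 80.2 in WT (log2 fold change -0.41 ± 0.47 SE, adjusted p = 0.68). Of 15 genes of zinc uptake and transport, listed after the members were known, 1 was measured. This was the zinc transporter gene ZIP9, a target of bZIP19, with 33.2 and 93.5 in vip3 and 38.8 and 58.9 in WT (log2 fold change 0.22, adjusted p = 0.88).

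The single NAC and TCP genes had lower values in vip3 on both arrays but did not pass. NAC014 (AT1G33060) had signals of 194.9 and 223.3 in vip3, against 268.5 and 248.5 in WT (log2 fold change -0.31 ± 0.15 SE, 95% interval -0.67 to 0.05, adjusted p = 0.28). TCP15 (AT1G69690), a class I TCP that tempers cell proliferation and endoreduplication in leaves and flowers, had 627.5 and 605.3 in vip3, against 734.5 and 633.9 in WT. Its difference was smaller than that between the WT arrays (log2 fold change -0.15 ± 0.10 SE, 95% interval -0.38 to 0.09, adjusted p = 0.44).

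The precision of these estimates followed the signal, which the fit builds in to some degree because its prior variance follows the mean signal. For the 14 genes above the dimmest 40% the log2 fold changes were from -0.59 to 1.55, and the 11 of them that were not called were between -0.59 and 0.23. The 7 dim genes (BHLH101, BZIP24, BZIP34, bZIP42, bZIP43, bZIP48 and bZIP58) spread from -1.40 to 2.94, and none was called in limma, while 1, bZIP43, had an unadjusted p under 0.05.

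**Figure D4:**
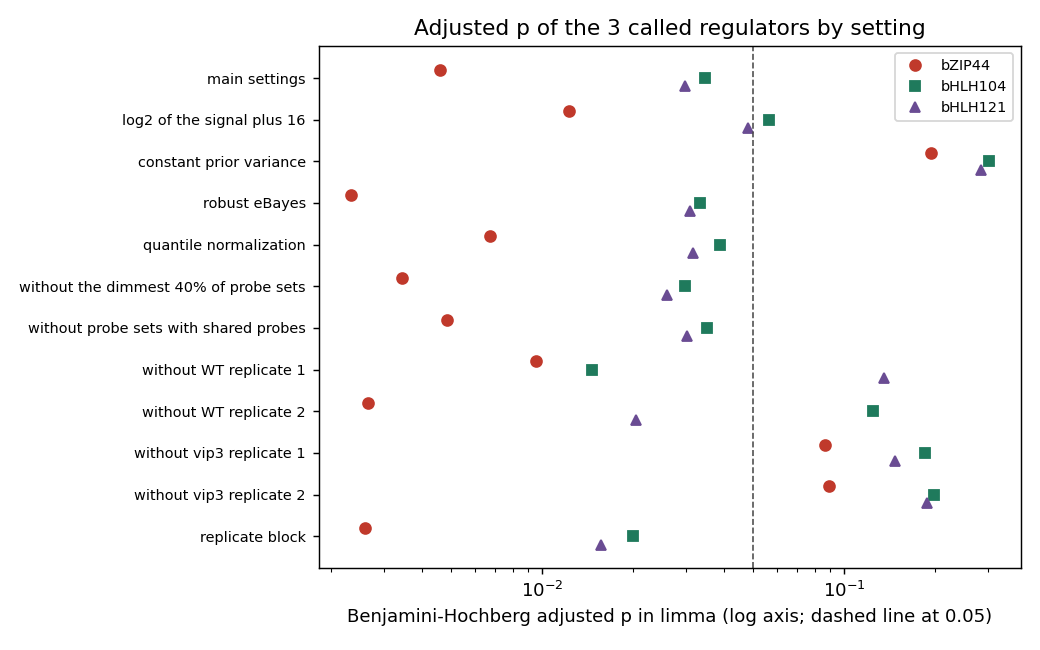
Adjusted p in limma of bZIP44, bHLH104 and bHLH121 under the main settings and each alternative, on a log axis with a dashed line at 0.05. All 3 genes lie right of the line with a constant prior variance and when either vip3 array is left out, as do bHLH104 without WT replicate 2 or with 16 added to the signal (0.057) and bHLH121 without WT replicate 1.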

How the data were processed

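RNA from 2 pools of vip3 and 2 of WT plants was hybridised to ATH1 arrays. The deposited values are signal intensities on a linear scale, made by the authors with MAS5, which corrects background and mismatch hybridisation and scales each array; the mean after trimming 2% at each end was 500.05 on all 4 arrays, and medians were from 172.1 to 175.7. The GCRMA values named in the study's methods were not used here. The paper cites a TAIR release for its chromatin maps. For these arrays the sources used here give no build, so no coordinates are printed.

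The 64 control probe sets were removed and log2 signals of the other 22746 were fitted with limma 3.58.1 in R 4.3.3 (lmFit, then eBayes with a prior variance following the mean signal; 7.5 degrees of freedom, 5.5 of them shared between probe sets). Benjamini-Hochberg adjustment ran over all 22746 p-values. The script was checked on simulated data. Of 22810 probe sets, 13513 had 1 gene symbol, 503 several and 8794 none. All 21 symbols matched RefSeq. Every regulator is named. List genes are named when called, or when few of a list were measured. The list genes that were not called, AMS and GUT2 among them, were named after their values were seen. So were the measured genes tied to a regulator's role. The naming rule used no values, but it, the role groups and the lists were drawn up with earlier results of these data known. Alternatives were an offset of 16, other variance models, quantile normalization, filters, removal of each array and the replicate block. The number of arrays limits the precision, and the replicates are pools.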

Additional observations from a re-analysis of the deposited data

Results flagged for a closer look

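The 25S ribosomal RNA control probe set, which took no part in the comparison, stood out because both vip3 arrays were at least 1.5 times above both WT arrays. Its signals were 223.5 and 320.9 in vip3 and 148 and 137.6 in WT, a ratio of the means of 1.91. The ratio of 3′ to 5′ signal of GAPDH, a measure of RNA integrity, was 1.51 and 1.63 in vip3 and 1.81 and 1.58 in WT, and that of actin was 13.5 and 15.7 in vip3 and 16.1 and 11.3 in WT. The actin ratio depended on the probe sets and was far lower in another actin pair on the array. That pair had 3′ signals of 11116 and 11893 in vip3 and 10338 and 10078 in WT. Its 5′ signals were 6368 and 6750 in vip3 and 5053 and 5438 in WT. The part of the 25S signal or of RNA integrity in the values of bZIP44, bHLH104 and bHLH121 was not tested.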

How the results depend on the processing

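The 3 upregulated genes became 0, and the 1 gene at the study's thresholds became 0, with a constant prior variance, under which limma called 0 of all probe sets (3798 at an unadjusted p under 0.05, 4 of the 21 regulators among them). Over the removal of each array, which leaves 1 array of a genotype to be assumed as variable as the others, the count of upregulated genes was from 0 to 2 and that at the study's thresholds from 0 to 1. The cause was not tested. The count of downregulated genes was 0 throughout. With log2 of the signal plus 16, 2 genes were called. Adjusted p-values over all settings were from 0.0023 to 0.19 for bZIP44, from 0.015 to 0.30 for bHLH104 and from 0.016 to 0.28 for bHLH121, and their direction held in every setting.

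Of 224 values of single genes under the alternatives, 11 turned direction, all of genes that were not called. Of these, 1 was the log2 fold change of bZIP42 with log2 of the signal plus 16 (-0.0085). The others came from the removal of an array, over which the log2 fold change ranged from -1.06 to 2.55 for BHLH101, from -0.032 to 0.26 for bHLH115, from -0.050 to 0.23 for bHLH34, from -0.19 to 0.00025 for bZIP19, from -0.83 to 0.00020 for BZIP24, from -1.40 to 1.67 for bZIP42, from -0.058 to 0.22 for BZIP53 and from -0.33 to 0.13 for BZIP60. The replicate block called bZIP44, bHLH104 and bHLH121 and changed no other call. Arrays with the same number deviated with a correlation of -0.044, which gives no sign that the numbers mark pairs. No background level or detection call was used, and the 7 dim genes, in the lowest 40% of mean log2 signal, had standard errors from 0.46 to 1.31.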

Other observations

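Lists of genes from other pathways were also read, and few genes of each list were measured. The counts below are read against the 5.07% of all probe sets called lower in vip3, and the lists were drawn up with earlier results known. Of 29 listed glucosinolate genes, whose expression in plants depends on MYB factors, 4 were measured, and 2 were downregulated. These were BCAT4, for the enzyme that opens methionine chain elongation (log2 fold change -1.04, adjusted p = 0.00092 in limma), and GSTU20 (-0.34, adjusted p = 0.038). UGT74B1 had higher values in vip3 on both arrays but was not called (0.24, adjusted p = 0.21), nor was AOP3 (0.04, adjusted p = 0.99). Of 20 listed flavonoid genes 6 were measured, and the flavonoid glycosyltransferase genes UF3GT (-1.23, adjusted p = 0.0028) and UGT78D1 (-0.57, adjusted p = 0.013) were downregulated. The other 4 were not called, with log2 fold changes from -0.07 for UGT78D2 to 0.61 for UGT78D3. All 4 measured of 19 listed genes for dehydration and abscisic acid, COR15A, COR15B, COR47 and LTI30, were downregulated, with a median log2 fold change of -1.81. Of 11 listed shade genes 2 were measured, and the auxin-response gene IAA29 was downregulated (-1.35, adjusted p = 0.016). FHL had higher values in vip3 and was not called (0.77, adjusted p = 0.46). Of 12 chlorophyll synthesis genes 2 were measured, and PORB was downregulated (-0.56, adjusted p = 0.011), while CHLI2 was not called (0.05, adjusted p = 0.73). The single measured gene of 19 for secondary walls, GUT2, did not pass (0.43, adjusted p = 0.31).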
